A study of Mus musculus with 4 samples.

Results

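The 86 rows described here encode proteins of the cytosolic ribosome, out of 16230 genes in the table. They were taken by symbol: Rpl or Rps followed by a digit, together with Rplp0, Rplp1, Rplp2 and Rpsa, without symbols marked as pseudogenes and without the ribosomal S6 kinases. Of these, 52 belong to the large subunit by symbol and 34 to the small subunit. By their names, 77 are canonical ribosomal protein genes (46 large, 31 small). The other 9 are paralogs, a retrotransposed copy, and Rps19bp1, which encodes a protein that binds Rps19 and is no ribosomal protein. The members lie on 19 chromosomes.

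The small subunit of the ribosome reads the mRNA, and the large subunit joins amino acids and holds the exit tunnel for the new chain. Each canonical protein is needed in about the same number per ribosome, and the mRNAs of these proteins start with a run of pyrimidines, the 5' terminal oligopyrimidine tract, through which mTOR signalling sets their translation. Activated T cells make ribosomes at a high rate before they divide, and most of these genes have many processed pseudogenes in mammalian genomes.

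RNA came from CD3+CD4+ cells sorted from the spleen 8 weeks after naive CD4 T cells had been injected into Rag-/- mice, a host without T and B cells of its own that then developed colitis. Controls (2 libraries) received cells of ERαfl/fl donors, whose loxP-flanked alleles of Esr1, the gene of estrogen receptor α, are intact. The other group (2 libraries) received CD4CreERαfl/fl cells, in which Cre driven from Cd4 acts in T cells. By their labels, both groups therefore share the flanked alleles and the host, and differ in Cre. Whether the colitis was alike in both groups was not tested. The labels give no ages, and nothing in them tells whether 2 libraries of a group are 2 mice, so the spread within a group may be technical, and a p-value here reads no other spread. The level of Esr1 (0.23, 0, 0 and 1.96 FPKM) does not check the labels. The second group is therefore called the CD4CreERαfl/fl-labelled libraries (labelled ER-deficient in the plots). Here and in what follows, values are given in the order control 1, control 2, then the first and second CD4CreERαfl/fl-labelled library.

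Values are FPKM, fragments scaled to the length of the transcript and to the size of the library, so levels of different genes can be compared per length. Depth was low: the steps between low values gave an estimate of 501000 to 698000 fragments per library. Where lengths of GENCODE transcripts apply (72 members with 1 transcript), the median member rested on about 352, 294, 140 and 216 fragments, a counting error alone of 5.33% to 8.45%. Markers of cell types also separated the groups. All 15 CD4 T cell markers were lower in both CD4CreERαfl/fl-labelled libraries than in both controls, with summed levels of 1811 and 1419 FPKM against 415 and 343. All 20 macrophage and monocyte markers were higher without overlap, with summed levels of 135, 629, 3289 and 3985 FPKM, and 4 of the 20 were listed at 0 in control 1. Summed erythroid markers stood at 216 FPKM in control 1 and at 5116 to 8218 in the other 3 libraries, and neutrophil markers at 1692, 3817, 5048 and 6859. The part of these cells in the results on ribosomal protein genes was not tested. In bulk RNA, fewer cells of a type and less RNA per cell cannot be told apart.

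The sequences that the genes share stand at their start sites. RefSeq windows from 250 bases before to 50 after the annotated start (GRCm38.p6) were matched for 65 members, 57 of them canonical. A run of at least 8 C or T on the sense strand, between 20 bases before and 50 after the start, was found in 45 of the 57 (78.9%), against 28.5% of 27025 genes with such a window. In the stretches of 30 bases printed here, the longest such run is in capitals. The first 4 belong to genes with large differences between the groups, the last 4 to genes with differences close to 0.
Rpl13a, chr7:45128722-45128751, minus strand: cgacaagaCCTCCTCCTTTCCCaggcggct
Rplp2, chr7:141447636-141447665, plus strand: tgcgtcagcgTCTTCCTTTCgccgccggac
Rpsa, chr9:120127775-120127804, plus strand: ccggccgcccgTCCTTTCgcgctacccggg
Rps13, chr7:116334161-116334190, minus strand: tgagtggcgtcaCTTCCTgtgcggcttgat
Rpl7a, chr2:26910789-26910818, plus strand: acaaTTCCCTCTTCTTTCTTTCTCCagcag
Rpl35, chr2:39005115-39005144, minus strand: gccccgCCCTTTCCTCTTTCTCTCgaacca
Rpl26, chr11:68901579-68901608, plus strand: gcgtgtagTTCTCTTTCCTTTTgcggccat
Rpl23, chr11:97782404-97782433, minus strand: gagtgggcggggCCTCCCgttcatatccca
Runs of 14 and 10 bases stand in Rpl13a and Rplp2, and runs of 7 and 6 in Rpsa and Rps13. Among the printed genes with differences close to 0, Rpl7a has 21, Rpl35 18, Rpl26 14 and Rpl23 6. The printed genes are examples. Rps26 (run of 9), Rps25 (run of 12) and Rpl10 (run of 10) had differences closer to 0 than Rpl35 and Rpl7a. The annotated start is not always the start used in a tissue, so the run does not always sit at base 1.

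Other letters were searched as well, and all but TATAAA were more frequent in these windows than in all genes. CGGAAG, the core bound by ETS factors such as GABP, was present on either strand in 70.2% of the 57 canonical windows and in 18.8% of all windows. GGGCGG, the Sp1 motif, was found in 61.4% and 38.2%, and AAGATGG, part of the YY1 motif, in 15.8% and 7.28%, both on either strand. CTTTCC on the sense strand between 20 bases before and 50 after the start, which can lie within a pyrimidine run, was found in 29.8% and 3.79%. TATAAA on either strand was found in 10.5% and 15.7%. A match is a description of these letters, not a bound site.

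All 77 canonical genes had values above 0 in all 4 libraries, and their means over the libraries ran from 36.3 to 1905 FPKM with a median of 479. The highest was Rpl23a, whose protein sits at the tunnel exit (GRCm38 chromosome 11, 78180935 to 78183584), with 2090.4, 1876, 1965 and 1687 FPKM. Rps24 (chromosome 14, 24490678 to 24496960) followed with 1505, 1408, 1407 and 1132 FPKM. The next 3 were Rpl17 with 1359, 1097, 1079 and 931 FPKM, Rpl23 with 1105, 906, 1227 and 849, and Rps27 with 1373, 889.9, 907 and 873. Within this group of 5 the order changed between libraries after Rpl23a: Rpl23 lay above Rpl17 in the first CD4CreERαfl/fl-labelled library and below it in the other 3. The lowest canonical gene by FPKM was Rps15a at 47.7, 46.5, 20.8 and 30.2, part of whose sequence is shared with copies described further on. Its linked GENCODE transcript is long, at 5180 bases, and FPKM divides by length. Across the 77 genes, which share a library and its depth, Pearson's r on log2(FPKM + 1) was 0.972 between the controls, 0.919 between the CD4CreERαfl/fl-labelled libraries, and 0.897 to 0.959 between groups.

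**Figure D1:**
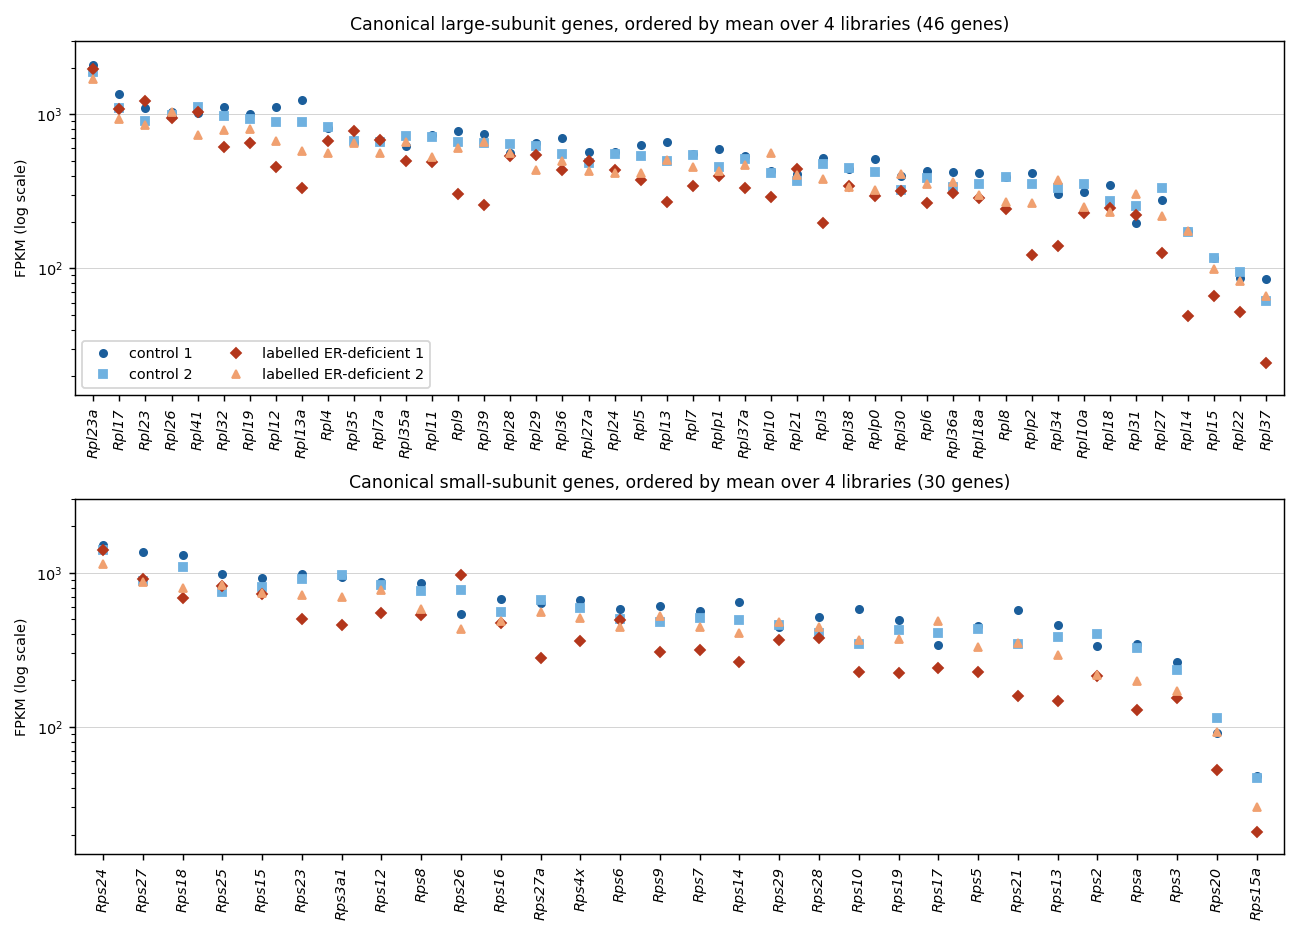
FPKM (log axis) of canonical ribosomal protein genes in each of the 4 libraries (46 large-subunit and 30 small-subunit genes shown), large subunit above and small subunit below, genes ordered by their mean. The dark red diamonds of the first CD4CreERαfl/fl-labelled library stand lowest for most genes, while Rpl23a holds the top in all 4 libraries.

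Together the 86 genes took 11.4% and 10.2% of all summed FPKM in the controls and 7.63% and 8.66% in the CD4CreERαfl/fl-labelled libraries. Both controls lay above both other libraries. The difference of the means was -2.66 percentage points, and the exact two-sided permutation p was 0.33, the smallest that 2 against 2 libraries allow. Summed levels were 50791, 45745, 34115 and 39041 FPKM. Large-subunit genes took 6.69%, 6.04%, 4.68% and 5.21%, and small-subunit genes 4.73%, 4.14%, 2.95% and 3.45%. The share was lower without each library in turn as well, by 2.03 to 3.28 percentage points. It was lower in the same 2 libraries in which summed CD4 T cell markers were lower and macrophage markers higher.

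**Figure D2:**
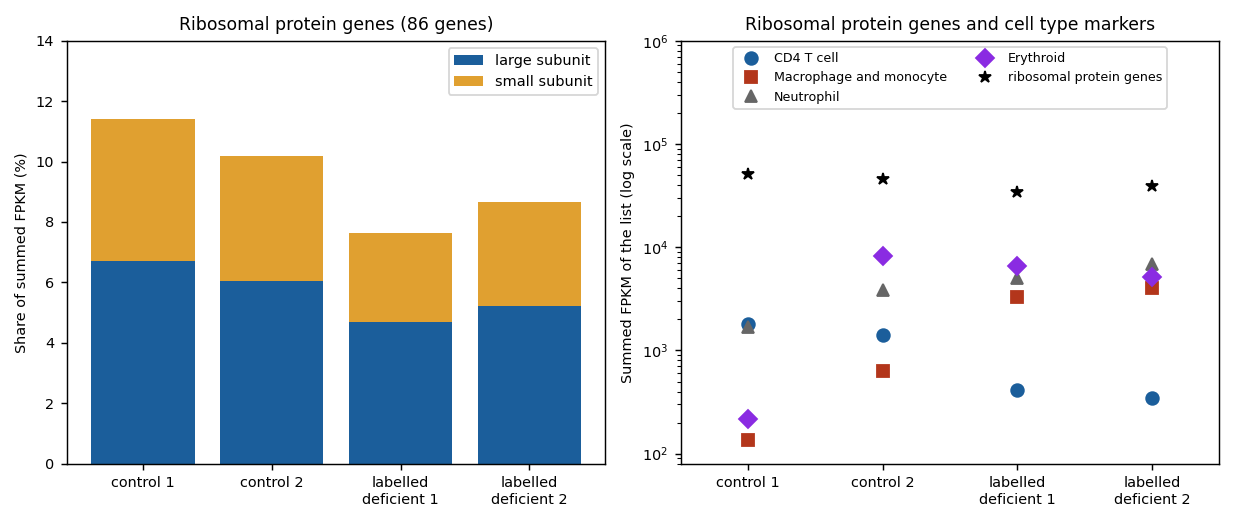
Left, share of summed FPKM (%) taken by large-subunit and small-subunit genes in each library. Right, summed FPKM (log axis) of the 86 ribosomal protein genes and of marker lists of 4 cell types. The ribosomal protein share lies between 7.63% and 11.4%, and the CD4 T cell and macrophage lists move in opposite directions between the groups.

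No ribosomal protein gene passed the test between the groups. In limma on log2(FPKM + 1), fitted on 12896 genes with a mean of at least 1 FPKM, 84 members were tested and 0 had an adjusted p under 0.05. Over all genes the same threshold called 0.0155% higher and 0.0388% lower. At an unadjusted p under 0.05, 13 members were lower and 1 was higher, where all tested genes gave 6.8% lower and 9.1% higher. The group difference in the median log2(FPKM + 1) over all members was -0.38 without control 1 and -0.60 without control 2. It was -0.25 without the first CD4CreERαfl/fl-labelled library and -0.72 without the second. With voom weights on estimated fragments, an alternative added after the data were seen, 1 of 37 members tested was called lower, where 0.817% of 6367 genes were called lower and 2.32% higher. It was Rpl13a, with an adjusted p of 0.0486 in limma with these weights.

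The direction of the differences was shared by most members. The mean was lower in the CD4CreERαfl/fl-labelled libraries for 76 of 84 members tested, against 53.6% of all genes tested. Both of these libraries lay below both controls for 52 of 84 members, against 25.7% of all genes, and above both controls for 1 member, Rps4l, against 23.2%. Only 2 members were too low to be tested, Rpl3l and Rpl39l. The median log2 difference was -0.46 over the 84 members and -0.07 over all genes. It was -1 or lower for 7 members, between -1 and -0.5 for 31, between -0.5 and 0 for 38, and above 0 for 8. With median-ratio scaling the medians were -0.40 for members and -0.02 for all genes, with 73 members lower and 11 higher.

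**Figure D3:**
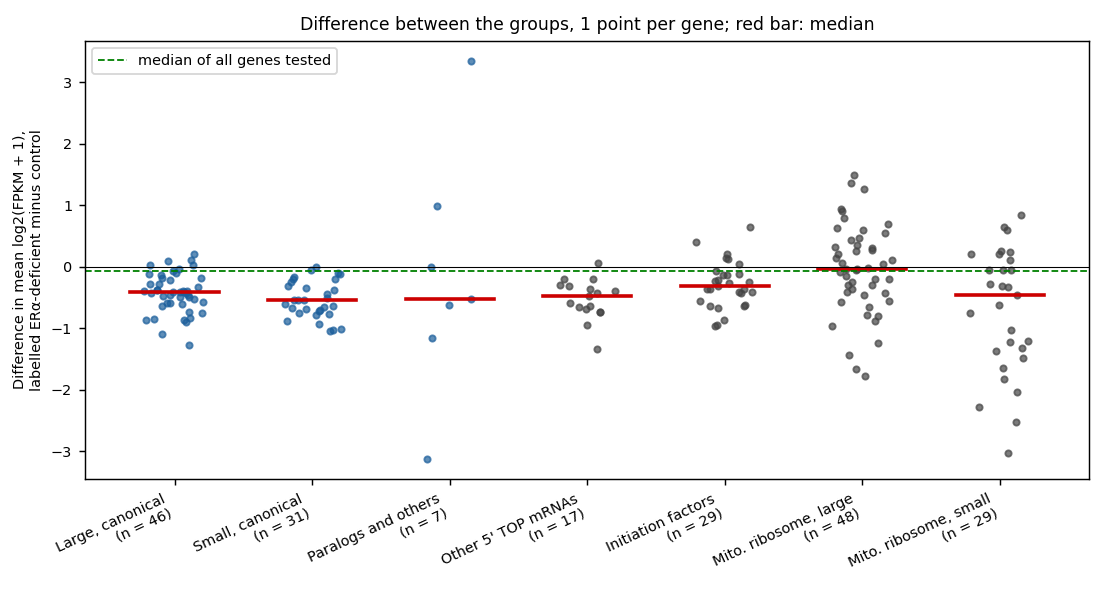
Difference in mean log2(FPKM + 1) between the CD4CreERαfl/fl-labelled libraries and the controls, 1 point per tested gene, with the median of each list as a red bar and the median of all genes as a dashed green line. Medians of canonical large-subunit (-0.41) and small-subunit genes (-0.55) lie below the dashed line at -0.07, and 0 of the ribosomal protein genes passed limma's threshold.

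The libraries within a group also differed. The lowest of the 4 values was in the first CD4CreERαfl/fl-labelled library for 61 of the 84 members, and the highest was in control 1 for 54. That first library lay below the second for 65 of 84 members, with a median gap of 0.37 on the log2 scale, where 54.2% of all genes did so. Control 2 lay below control 1 for 60 of 84, against 47.9% of all genes, with a median of -0.12. The median level over all members was 9.12, 8.90, 8.29 and 8.76 on the log2(FPKM + 1) scale, and the group difference of -0.49 in this median was -0.25 without the first CD4CreERαfl/fl-labelled library and -0.72 without the second. Without the first, 61 of 84 members lay below both controls (36% of all genes), and without the second 70 (43%). Without control 1 the count below the remaining control was 55 (37.4%), and without control 2 it was 65 (38.1%).

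The members with the largest differences among those above 0 in all libraries came from both subunits. Rpl13a, a large-subunit protein also known from interferon-driven silencing of inflammatory mRNAs (chromosome 7, 45125563 to 45128745), had 1235 and 895 FPKM in the controls and 331 and 578 in the CD4CreERαfl/fl-labelled libraries. The groups did not overlap, and the log2 difference was -1.26 ± 0.36 (SE, adjusted p = 0.202 in limma). Rpsa, a small-subunit protein also known as a laminin receptor, had 343 and 323 FPKM against 129 and 199 (log2 difference -1.05 ± 0.30, SE, adjusted p = 0.208 in limma). Rpl7l1, a relative of Rpl7, had 389 and 290.4 FPKM against 117 and 194, a log2 difference of -1.15 ± 0.35 (SE, adjusted p = 0.222 in limma).

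The 13 members lower at an unadjusted p under 0.05 included these 3, Rplp2 and Rps15a, described further on, and 7 others. Rpl12, which sits at the base of the stalk, had 1111 and 897 FPKM against 456 and 668, and Rps18 had 1302 and 1095 against 685 and 799. Rps2, which lines the mRNA entry channel, had 335 and 402 against 215 and 216, so that its 2 CD4CreERαfl/fl-labelled libraries were nearly equal. Rps13 had 458 and 386 against 147 and 292. The remaining 3 were Rps3a1, Rpl27 and Rpl8, with log2 differences of -0.75, -0.86 and -0.61. In all 13 the groups did not overlap.

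For another set of members the first CD4CreERαfl/fl-labelled library stood far below the other 3. Rpl39, at the wall of the exit tunnel, had 742, 655, 257 and 665 FPKM. Rpl34 had 305, 334, 139 and 373, and Rps21 had 577, 346, 158 and 348. Rps27a, which is made as a fusion with ubiquitin, had 632, 668, 280.1 and 556. In Rpl39, Rpl34 and Rps21 the second of these libraries lay within or above the range of the controls. Members with small differences between the group means were Rpl26 with 1031, 994, 949 and 1036 FPKM and Rpl7a with 665.7, 658, 679 and 562. The difference was also small for Rps25, with 980.3, 754, 818 and 836, though its controls lay apart. These genes were chosen after their values were seen.

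The acidic stalk, which recruits the GTPases that drive initiation and elongation, consists of Rplp0 and the Rplp1 and Rplp2 dimers. Rplp0 had 511 and 423 FPKM in the controls and 294 and 324 in the CD4CreERαfl/fl-labelled libraries. Rplp1 had 598 and 452 against 396 and 429. Rplp2 had 415 and 355 against 122 and 264. In all 3 the groups did not overlap, with log2 differences of -0.59, -0.34 and -1.09 (SE 0.25, 0.26 and 0.41) and adjusted p of 0.331, 0.566 and 0.297 in limma. A row named as a pseudogene of Rplp2 is described further on.

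Rpl5 and Rpl11 form a complex with 5S rRNA that binds Mdm2 when ribosome assembly fails. Rpl5 had 632 and 537 FPKM against 372 and 413, and Rpl11 had 728 and 711 against 493 and 528. Their log2 differences were close to each other, at -0.57 ± 0.24 and -0.50 ± 0.23 (SE, adjusted p 0.336 and 0.365 in limma), without overlap between groups. Rps6, the substrate of the S6 kinases, had 581 and 502 FPKM against 490.02 and 448, a smaller difference of -0.20 ± 0.24 (SE, adjusted p = 0.711 in limma). Rps19, the gene most often affected in Diamond-Blackfan anaemia, had 492 and 427 against 222 and 372, with a difference of -0.67 ± 0.33 (SE, adjusted p = 0.39 in limma). Rpl3, which lies near the catalytic centre, had 522 and 477 against 197 and 379 (log2 difference -0.86 ± 0.37, SE, adjusted p = 0.333 in limma). Rpl10, one of the last proteins to join the large subunit, had 429.6 and 416 FPKM against 289 and 560.2. Its log2 difference of -0.07 became 0.41 without the first CD4CreERαfl/fl-labelled library.

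A few members did not follow the others. Rpl31, Rpl21, Rpl35 and Rpl23 had the largest positive differences among canonical members, at 0.21, 0.11, 0.09 and 0.03 on the log2 scale, with SE of 0.24 to 0.29 and adjusted p of 0.756 to 0.968 in limma. Rpl21 had 410.3, 372, 441 and 404 FPKM, and Rpl35 had 662, 673, 775 and 649. In both, as in Rpl31 and Rpl23, the groups overlapped. The sign of Rpl23 turned with quantile scaling (-0.04), without control 2 (-0.11) and without the first CD4CreERαfl/fl-labelled library (-0.24), that of Rpl35 without the same first library (-0.04) and that of Rpl31 without the second (-0.01). Rps26, which lines the mRNA exit channel, had 541 and 774 FPKM against 962 and 435, so that the 2 CD4CreERαfl/fl-labelled libraries held both its highest and its lowest value. It is named here after its values were seen.

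Large and small subunits were compared within each library, where a scaling factor cancels. The median log2(FPKM + 1) of large-subunit genes minus that of small-subunit genes was -0.13 and -0.06 in the controls and 0.01 and -0.11 in the CD4CreERαfl/fl-labelled libraries. The groups overlapped, and the difference between them was 0.04 (exact two-sided permutation p = 0.67). Without the 9 paralogs and others the same difference was -0.11, and without the first CD4CreERαfl/fl-labelled library it was -0.015, so its sign depends on which members and libraries enter. All 31 canonical small-subunit genes and 41 of 46 large-subunit genes had a lower mean in the CD4CreERαfl/fl-labelled libraries, against 53.6% of all genes tested. Groups did not overlap, in the lower direction, for 21 of the 31 and 28 of the 46, against 25.7% of all genes tested. The median of the gene differences was -0.55 for canonical small-subunit genes and -0.41 for large-subunit genes. Rps26 counts among the 31 with a difference of -0.00054.

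The mitochondrial ribosome has its own proteins, and its 77 tested genes served as a comparison family. Their median log2 difference was -0.14, with 47 lower and 30 higher means, where 53.6% of all genes tested had a lower mean. By subunit, the median was -0.46 for 29 small-subunit genes (21 with a lower mean) and -0.04 for 48 large-subunit genes (26 with a lower mean). Without overlap, 19 of the 77 were lower and 9 higher, against 25.7% lower and 23.2% higher of all genes tested. Those 19 were 11 small-subunit and 8 large-subunit genes. In limma 0 of the 77 were called, with 9 lower and 3 higher at an unadjusted p under 0.05, which 6.8% of all genes tested reached in the lower and 9.1% in the higher direction. Of these 9, 6 belong to the small and 3 to the large subunit. Levels of the 77 genes were far lower than those of the cytosolic members, with library medians of 3.77, 3.77, 3.42 and 3.69 on the log2(FPKM + 1) scale, so they rest on far fewer fragments. The large-minus-small difference of library medians was 0.12, 0.47, 0.65 and 0.57 there, and the groups did not overlap (difference 0.32, exact two-sided permutation p = 0.33, the smallest possible). Their share of summed FPKM was 0.487%, 0.47%, 0.461% and 0.466%.

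The paralogs are the members where values at 0 occur. Rpl22l1 (chromosome 3), a paralog of Rpl22, had 89.7 and 97.4 FPKM in the controls, was listed at 0 in the first CD4CreERαfl/fl-labelled library and had 116 in the second. On its transcript of 552 bases, 3 fragments would be 10.8 FPKM in that library. Here 3 is taken as an approximate upper limit on the expected number when 0 are counted, not as a strict maximum. The other values of Rpl22l1 correspond to about 34.5 to 35.7 fragments. Its log2 difference of -3.13 ± 2.07 (SE, adjusted p = 0.511 in limma) turned to 0.31 without that library. A 0 from RSEM, which divides fragments among similar transcripts by estimate, can also be a failed assignment. Rpl22l1 has 0 copies with a row in the table and 3 annotated pseudogene copies without one. Whether these copies bear on its value at 0 was not tested. Rpl22 itself, known for its role in T cell development, had 86.4, 94.3, 51.9 and 82.4 FPKM, without overlap between groups.

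Rps4l, a relative of the X-linked Rps4x, was the 1 member with higher values without overlap. Both controls list it at 0, and the other 2 libraries at 8.68 and 9.74 FPKM. These rest on about 4.1 and 5.11 fragments, and 3 fragments would be 4.56 and 4.79 FPKM in the controls, so the values are near the limit of detection and no fold is given. Rps4l passed the filter on mean FPKM only through the 2 libraries where it is above 0. Its adjusted p of 0.12 in limma is therefore no support for a difference. Rps4x had 665, 588, 361 and 509 FPKM. The first 60 coding bases of both show how far they can be told apart by sequence, with the 7 differing bases in capitals.
Rps4x: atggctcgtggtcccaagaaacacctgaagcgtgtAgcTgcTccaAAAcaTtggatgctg
Rps4l: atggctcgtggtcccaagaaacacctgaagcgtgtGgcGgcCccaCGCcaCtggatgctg

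Rps27l, a paralog of Rps27 and a target of p53, had 11.7, 24.5, 20.3 and 58.5 FPKM. The groups overlapped, with a log2 difference of 0.99 ± 0.62 (SE, adjusted p = 0.492 in limma). These values rest on only about 4.38, 8.75, 5.47 and 17.5 estimated fragments, so the difference is uncertain. Rpl36al had 242.5, 239, 121 and 235 FPKM beside 422, 337, 307 and 364 for Rpl36a. Rpl7 had 551, 547, 342 and 458 FPKM beside the lower Rpl7l1. Rpl39l was listed at 0 in 3 libraries and had 2.29 FPKM in the second CD4CreERαfl/fl-labelled library, about 1.03 fragments beside the abundant Rpl39. Rpl3l, whose protein replaces Rpl3 in muscle, was listed at 0 in all 4 libraries, where 3 fragments would be 3.57 to 4.97 FPKM. Rps19bp1 had 2.07 to 6.23 estimated fragments per library, too few for a comparison.

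**Figure D4:**
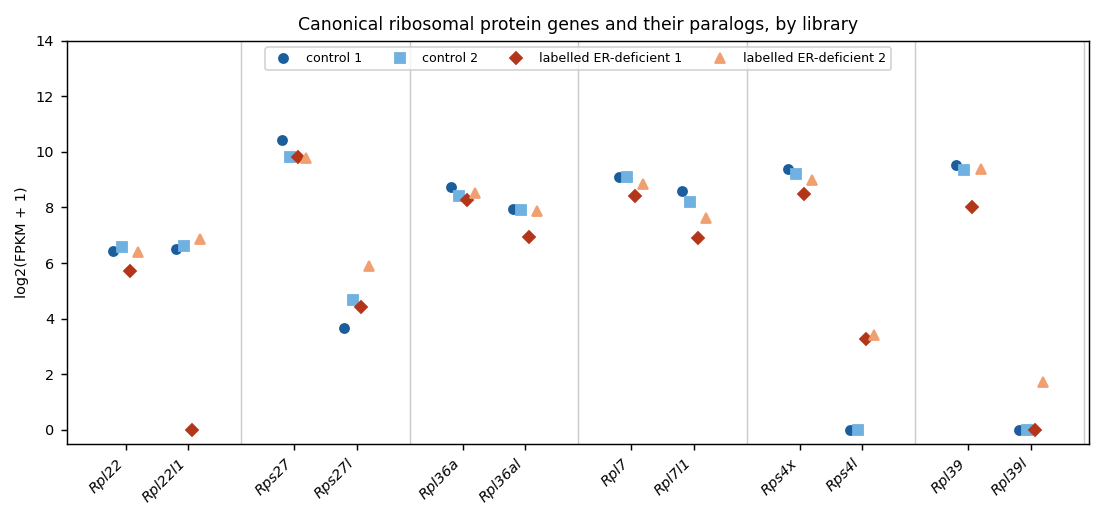
log2(FPKM + 1) of 6 canonical genes and their paralogs in the 4 libraries. Rpl22l1 is at 0 in the first CD4CreERαfl/fl-labelled library only, and Rps4l is at 0 in both controls, while Rpl22 and Rps4x are above 0 in all 4.

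Copies with nearly the same sequence bear on how fragments were divided. In GENCODE, 79 of the 86 members had at least 1 other gene matching over at least 250 bases with at least 85% identity. For 23 members such a copy has its own row in the table, and another 1347 pseudogenes that match a member so have none, with a median of 11 and at most 131 copies of any kind per member. Rpl37 (chromosome 15) and its retrotransposed copy Rpl37rt (chromosome 5) are 99.7% identical over 344 bases. Their first 60 coding bases are the same in both genes.
Rpl37 and Rpl37rt: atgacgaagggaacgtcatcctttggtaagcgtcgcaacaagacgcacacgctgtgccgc
Rpl37 had 84.8, 61.2, 24.3 and 66.2 FPKM and Rpl37rt 248, 277, 292 and 236. Their sum was 333, 338, 317 and 303 FPKM, of which Rpl37 took 25.5%, 18.1%, 7.68% and 21.9%. The log2 difference between the groups was -0.83 for Rpl37 alone and -0.12 for the sum.

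For other genes the difference moved or turned when the rows of their copies were added. Rpl31 and Rpl31-ps12 are 98.9% identical over 375 bases and differ at 1 of the first 60 coding bases, shown in capitals.
Rpl31: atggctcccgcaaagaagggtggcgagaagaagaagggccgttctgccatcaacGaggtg
Rpl31-ps12: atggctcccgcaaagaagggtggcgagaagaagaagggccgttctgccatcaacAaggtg
Rpl31 had 198, 252, 222 and 302 FPKM and Rpl31-ps12 had 224, 227, 114 and 122. The log2 difference was 0.21 for Rpl31 alone and -0.25 for the sum. Rpl30 and the pseudogene Gm12191 are 99.7% identical over 348 bases. Rpl30 had 397, 323, 320 and 413 FPKM, Gm12191 had 129, 194, 0 and 49.1, and the difference went from 0.02 to -0.44 when they were summed. Rplp2 took 73.1%, 72.3%, 35.2% and 59.7% of the sum with Rplp2-ps1, and its difference went from -1.09 to -0.43. Rplp2-ps1 was taken by its name, since the sequence search did not match it to Rplp2. The search did match Rplp2 to the row of Wdr89, 99.3% identical over 447 bases. Wdr89 had 6.43, 8.52, 15.8 and 4.73 FPKM and is not in this sum.

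By FPKM, Rpl14 and Rps15a hold only a minor part of their families in this table. Rpl14 had 175, 172, 48.8 and 175 FPKM, and Rpl14-ps1, 98.9% identical over 656 bases, had 537, 474, 330.3 and 399. The log2 difference of Rpl14 was -0.90, but 0.012 without the first CD4CreERαfl/fl-labelled library, and that of the sum was -0.54. Rps15a took 11.99%, 12.9%, 14.7% and 12.7% of the FPKM of a family with Rps15a-ps4 and Rps15a-ps6. This is no share of fragments, because FPKM divides by length. The GENCODE transcript linked to Rps15a has 5180 bases, which would give about 172, 160, 53.8 and 86.9 fragments. The authors' length may differ. In the first 60 coding bases Rps15a and Rps15a-ps4 differ at 1 position.
Rps15a: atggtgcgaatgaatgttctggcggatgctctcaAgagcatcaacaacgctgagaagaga
Rps15a-ps4: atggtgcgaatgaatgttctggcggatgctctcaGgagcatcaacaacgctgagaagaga
Summed over the 3 rows, the family had 397, 361, 141 and 237 FPKM, and the log2 difference was -1.05 against -0.88 for Rps15a alone. Adding the rows named or described as pseudogenes of a member to that member left 0 members called in limma. Copies not named so, such as Rpl37rt, were not added in that fit.

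**Figure D5:**
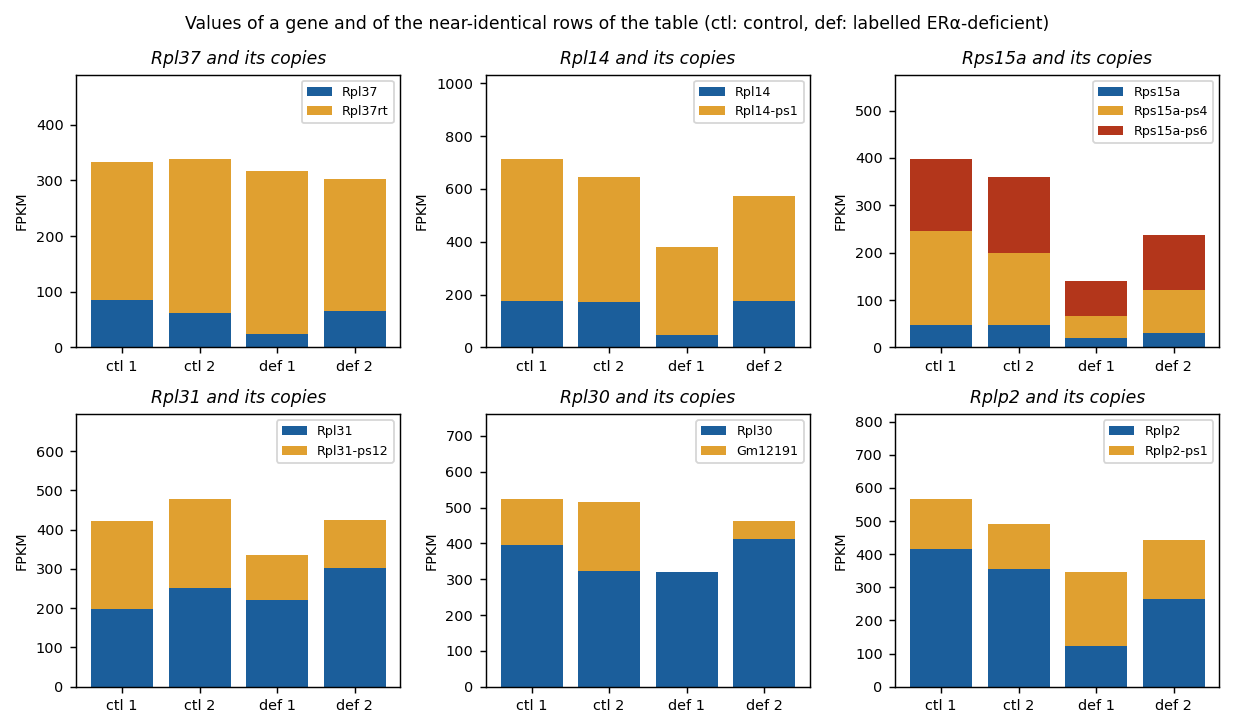
Stacked FPKM of 6 ribosomal protein genes and of the rows of their copies in each library (ctl, control, and def, CD4CreERαfl/fl-labelled). Rplp2-ps1 was taken as a copy by its name only, and Wdr89 is not drawn. The Rpl37 family sum stays between 303 and 338 while Rpl37 itself is lowest in the first CD4CreERαfl/fl-labelled library, and Gm12191 is at 0 in that library.

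The highest single row of the whole table is Gm5148, a protein-coding gene on chromosome 3 that RefSeq places at 37714190 to 37724360. It is no member by symbol, but the table's KEGG annotation names it as a homologue of Rps23. It had 19852, 16291, 12994 and 15298 FPKM, 4.47%, 3.63%, 2.91% and 3.4% of all summed FPKM. It was lower without overlap (log2 difference -0.35, adjusted p = 0.516 in limma), in the same direction as most members. Rps23 itself had 979.6, 911, 499 and 718 FPKM, and no row of the table matched it over at least 250 bases at 85% identity or more. That search used GENCODE transcripts, so a row without one could not match. Whether Gm5148 shares fragments with Rps23 was not tested.

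Ribosomal proteins with names outside the Rpl and Rps pattern were examined as well. Fau, whose product is fused to a small-subunit protein, had 1021, 879, 734 and 784. Rack1, a scaffold on the small subunit, had 361, 356, 152 and 276. Both genes lay below both controls in both other libraries, and neither passed in limma (adjusted p 0.547 and 0.344).

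Other genes of translation were compared as fixed lists, without a test of the list. Of all genes tested, 53.6% had a lower mean in the CD4CreERαfl/fl-labelled libraries, 25.7% were lower without overlap and 6.8% were lower at an unadjusted p under 0.05. Of 17 other mRNAs known for a pyrimidine tract, 16 had a lower mean and 14 were lower without overlap, with a median of -0.47, close to that of the ribosomal protein genes. Eef1a1, the factor that brings aminoacyl-tRNA to the ribosome, had 2633, 2430, 1874 and 1966 FPKM. Tpt1 had 2007, 1796, 924 and 1415. Of 29 initiation factors, 23 had a lower mean and 15 were lower without overlap, with a median of -0.31. These 2 lists share Eif3e, Eif3f, Eif3h and Eif4b, each lower without overlap, so their counts are not independent. Eif3e had 110, 99.3, 49.6 and 58.6 FPKM. Of 13 genes that signal to these mRNAs, 9 had a higher and 4 a lower mean, with a median of 0.11. Larp1, which binds the pyrimidine tract when mTOR is off, had 18.3, 19.98, 8.38 and 11.3 FPKM, and Myc, which drives ribosome synthesis, had 10.2, 7.52, 17.5 and 15.7. Of 8 dedicated chaperones of ribosomal proteins, 5 were lower and 3 higher in mean. Among all of these genes 0 passed in limma. At an unadjusted p under 0.05 there were 5 lower of the 17, 1 of the 29, 1 of the 13 and 1 of the 8. Each is to be read against the 6.8% of all genes tested. The 1 of the 29 is Eif3e, which is also among the 5 of the 17.

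Introns of ribosomal protein genes carry small nucleolar RNAs, which guide modification of ribosomal RNA. The table lists 17 short RNAs inside 13 member genes, and 16 of them were at 0 in at least 1 library.

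Outside the members, the genes whose pattern over the 4 libraries was closest to the summed ribosomal protein genes were searched among 1327 with a mean of at least 50 FPKM. The root mean square distance of centred log2 values was 0.034 for Mea1 and 0.046 for Eef1a1, the fifth. Mea1 had 119, 113, 80.4 and 90.1 FPKM. Ppifos, Pdxdc1 and Cd99 lay between. A likeness over 4 libraries is a description only.

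Whether the pyrimidine run goes along with the size of the difference was examined in the 57 canonical genes with a window. The median log2 difference was -0.43 for the 45 genes with a run of at least 8 and -0.57 for the 12 without. The sequences printed at the start are examples and do not bear on this comparison.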

How the data were processed

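RNA of sorted CD4 T cells was measured in 4 libraries, 2 per group. The authors deposited 1 table of FPKM for 16230 genes. HISAT, Bowtie2, RSEM and the build mm10 are named, per the submitters' processing notes, without roles. Strand use and versions are not given in the sources used here. RSEM divides fragments of similar transcripts by estimate, so a value at 0 can be a failed assignment.

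NCBI identifiers matched GRCm38.p6 RefSeq for 16183 of 16230 genes and for all 86 members. The test was limma 3.58.1 (R 4.3.3) on log2(FPKM + 1), thus with a pseudocount of 1, for the 12896 genes whose mean FPKM reached 1. Group was its single term, with a variance trend on mean level, two-sided, and p-values were adjusted by Benjamini-Hochberg over all these genes, with a threshold of 0.05. This scale understates changes of low genes. The scripts were checked on simulated data. Values per library were compared by exact permutation. Copies were sought with blastn 2.17.0 among GENCODE transcripts.

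The table holds no counts. Depth was estimated from genes with 1 transcript of more than 800 bases: with a tolerance of 0.2 fragments, 76.4% to 77.8% of values came out whole, and 25.7% to 57.8% did so at displaced steps. GENCODE lengths may differ from the authors' lengths, so fragment numbers are approximate, and limits cover counting error only.

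The members and lists were chosen with earlier results of these data known. Named genes were taken by rule: members at 0 in any library, the 5 highest and 5 lowest means, the 5 largest differences in each direction among members above 0 in all libraries, the acidic stalk, 6 paralog pairs plus Rpl3 with Rpl3l, and Rpl5, Rpl11, Rps6 and Rps19. Families with copies, Rpl7a, Rpl8, Rpl12, Rpl26, Rpl27, Rpl34, Rps2, Rps3a1, Rps13, Rps18, Rps21, Rps23, Rps25, Rps26, Rps27a and Gm5148 were added after their values were seen. Some genes that the rule or lists took are not reported here by name, though they stay in counts and tests. Equal library numbers mark no shared animal or day in the labels, so libraries were not paired. Alternatives covered pseudocount, filter, scaling, trend, replicate block, each library left out, choice of members, short RNAs and pseudogene rows added to members. Voom weights, means over members and the count below controls were added later.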

Additional observations from a re-analysis of the deposited data

How the results depend on the processing

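No member was called in limma under any alternative but 1. With voom weights on estimated fragments, that alternative, added after the data were seen, 1 member was called lower, Rpl13a (log2 difference -1.26, adjusted p = 0.0486). Over all genes, the 2 higher and 5 lower calls became 0 and 0 without a filter, without the trend, without short RNAs or with a pseudocount of 0.1, where 2190, 1996, 2102 and 1813 genes had an unadjusted p under 0.05. Higher calls were 0 with a pseudocount of 5 or a mean of at least 5 FPKM and 1 with quantile scaling. Leaving out each library in turn gave 0 to 0 calls in either direction, with 1234 to 2042 genes at an unadjusted p under 0.05. Voom weights gave 148 higher and 52 lower calls of 6367 genes.

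With library number as a replicate block, 0 higher and 0 lower genes were called, with 1888 at an unadjusted p under 0.05. Libraries of the same number did not deviate together (r = -0.0016 over 12896 genes, which are not independent), and the numbers were not treated as pairs.

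The difference in large-minus-small medians, 0.04, was -0.10 without paralogs and others, -0.11 without Rpl37rt as well, and -0.072 as a mean over members. Of the 84 members tested, signs turned in 3 with median-ratio scaling (Rpl26 0.033, Rps25 0.0065 and Rps26 0.063). They turned in 2 with quantile scaling (Rpl23 -0.042 and Rps26 0.0070) and in Rps26 with a pseudocount of 5. With the rows named or described as pseudogenes added, 2 signs turned (Rpl31 -0.25 and Rpl30 -0.44). Leaving out the first or second CD4CreERαfl/fl-labelled library turned 10 and 4 signs, and leaving out control 1 or 2 turned 3 and 4. Without the first CD4CreERαfl/fl-labelled library, Rpl14 was at 0.012 and Rpl34 at 0.23. For members that the naming rule took, over the libraries left out in turn, the log2 difference ranged from -0.24 to 0.29 for Rpl23, from -0.040 to 0.22 for Rpl35, from -0.011 to 0.43 for Rpl31, from -0.55 to 0.41 for Rpl10 and from -6.56 to 0.31 for Rpl22l1. Rpl23 was negative without control 2 (-0.11) and without the first CD4CreERαfl/fl-labelled library, and without that library the signs of Rpl35, Rpl10 and Rpl22l1 turned too. That of Rpl31 turned without the second. The cause was not tested. For named members, 438 other values under an alternative kept the direction and the side of the threshold. Medians of all members, of each subunit and their shares of summed FPKM stayed lower in the CD4CreERαfl/fl-labelled libraries under each alternative run for them. Depth limits Rps27l and the members under about 10 FPKM, which rest on few fragments.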
